A study of Mus musculus with 7 samples.

Results

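The called contacts of Gata3 and of the downstream mG900 region with the rest of chromosome 2 were examined in mouse CD4+ T cells. Members were all regions on chromosome 2 that did not overlap the 2 Mb window chr2:8500000-10500000 around Gata3 (mm10), and 320 of the 1153 regions in the 7 lists met this rule. The Gata3-TSS bait, placed at the transcription start site, gave 226 of them and the mG900 bait, placed 932 kb downstream of it, gave 94. Each list came from 1 4C-seq library, with no second library of any condition. The Gata3-TSS bait was read in naive CD4+ T cells, Th0 cells and Th2 cells of WT mice, and in Th2 cells of mG900KO mice. Only the WT cells were read from the mG900 bait. The methods name C57BL/6 mice, and naive cells came from lymph nodes and spleen. Th0 and Th2 cells were naive cells activated for 3 days with antibodies to CD3ε and CD28, without further additions for Th0 and with IL-4 and anti-IFN-γ for Th2. The mG900KO mice carry a Cas9-made germline deletion of the mG900 region, which lies inside the window, so that every distant sequence described here is present in both genotypes. Neither the mice per library nor the mouse line used nor the animals' age is given in the sources used here, and region lists hold no marker values against which the labelled cell types could be checked.

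GATA3 is the transcription factor that directs CD4+ T cells towards the Th2 fate and switches on the type 2 cytokine genes. In 4C-seq, crosslinked chromatin is cut with NlaIII at CATG, ligated, and the fragments joined to a chosen bait are read, so that a stretch of neighbouring fragments recovered more often than its surroundings is called as a region. Contacts fall off with distance along a chromosome, and calls many megabases away are few and scattered. A region here is a listed interval without a height, read count or p-value, so regions can be counted, measured and placed, but 2 lists cannot be compared by a test, and the depth behind each list is unknown.

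Regions began and ended on restriction sites. Of the 640 edges of the 320 regions, 621 (97.0%) lay on an NlaIII site. The shortest calls spanned 50 fragments, which equals a setting of the region caller (size_intra 50). Of the 313 calls outside the repeat-prone locus, 68 had exactly 50. Among these 313, 25 of 284 different start positions and 26 of 284 end positions were used in 2 or more libraries, and 4 starts and 3 ends in 3. The sequences below are shown because these sites bound the same region in 3 libraries or with both baits. Each is the plus strand of mm10, with the NlaIII site in capitals and 20 bases on either side.
End in Prkcq intron, chr2:11231131-11231174: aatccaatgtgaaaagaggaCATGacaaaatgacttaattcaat
End between Trdmt1 and Vim, chr2:13558553-13558596: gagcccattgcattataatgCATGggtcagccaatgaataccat
Start in Nebl intron, chr2:17360796-17360839: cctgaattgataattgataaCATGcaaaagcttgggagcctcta
End beside Arrdc1, chr2:24940606-24940649: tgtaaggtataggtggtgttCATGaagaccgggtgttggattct
Start in Rc3h2 intron, chr2:37419168-37419211: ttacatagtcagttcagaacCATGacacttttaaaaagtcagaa
End in Lypd6b intron, chr2:49853382-49853425: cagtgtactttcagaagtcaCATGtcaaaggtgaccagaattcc
Start beside Psmd14, chr2:61705095-61705138: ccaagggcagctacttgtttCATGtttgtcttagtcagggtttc
Start in Dpp4 intron, chr2:62384556-62384599: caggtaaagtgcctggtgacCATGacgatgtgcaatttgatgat
The Prkcq site ended a Gata3-TSS call of mG900KO Th2 cells and an mG900 call of WT Th2 cells. The Rc3h2 site began the Gata3-TSS calls of WT naive and WT Th0 cells and the mG900 call of WT Th2 cells. Reading 30 bases inward or outward from each CATG, all these fragment ends but that beside Psmd14 occur once among the fragment ends of the genome, and the forward Psmd14 end occurs 4 times.

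One locus was called in all 7 libraries and is set apart. It spans chr2:98656806-98671576 (14.8 kb), 88.8 Mb from the Gata3-TSS, over the predicted genes Gm10800 and Gm10801. All 7 calls ended at 98671576, and their starts were at 98656806 in 3 libraries, 98656990 in 3 and 98657378 in 1. Of its 146 NlaIII fragment ends, 75 (51.4%) occur more than once in the genome, against a median of 4.90% and a highest value of 40.2% over the other 213 loci. Its most repeated end, chr2:98671224-98671253 on the plus strand, occurs 29468 times.
Most repeated fragment end: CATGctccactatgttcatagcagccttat
The locus also holds a tandem array in which a 16-base NlaIII motif recurred at 5 sites, with 2 of the 4 spacings equal to 234 bases. The unit shown, chr2:98666564-98666797, has the length of the mouse major satellite, a repeat found in bulk beside centromeres and mostly missing from the assembly.
Tandem repeat unit: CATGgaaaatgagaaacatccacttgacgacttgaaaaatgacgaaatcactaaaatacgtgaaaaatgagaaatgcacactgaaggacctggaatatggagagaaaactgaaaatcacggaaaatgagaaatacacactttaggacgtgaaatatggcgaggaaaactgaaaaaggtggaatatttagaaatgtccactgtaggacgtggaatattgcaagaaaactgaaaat
Whether reads from repeated copies produced the call was not tested. Its 7 calls are left out from here on, which leaves 313 regions, of which 222 belong to the Gata3-TSS bait and 91 to the mG900 bait.

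Calls thinned with distance from both baits. The Gata3-TSS bait gave 57 regions up to 5 Mb away, 50 at 5 to 20 Mb, 52 at 20 to 50 Mb and 63 beyond 50 Mb. Its share up to 5 Mb was 25.7% (exact 95% binomial interval 20.1 to 32.0%, counting error only), where 4.72% of the NlaIII sites outside the window lie. Beyond 50 Mb it was 28.4% of regions against 69.1% of sites. Per library and 10 Mb of known sequence, regions fell from 17.8 up to 5 Mb to 7.48, 4.34 and 1.29 in the farther classes. With the mG900 bait the counts were 26, 27, 21 and 17, and the density fell from 10.8 to 5.70, 2.33 and 0.462. Both baits lie close to one end of the chromosome, whose known sequence starts at base 3050001, so every locus beyond 20 Mb lies on the higher-coordinate side, which is upstream of Gata3.

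**Figure D1:**
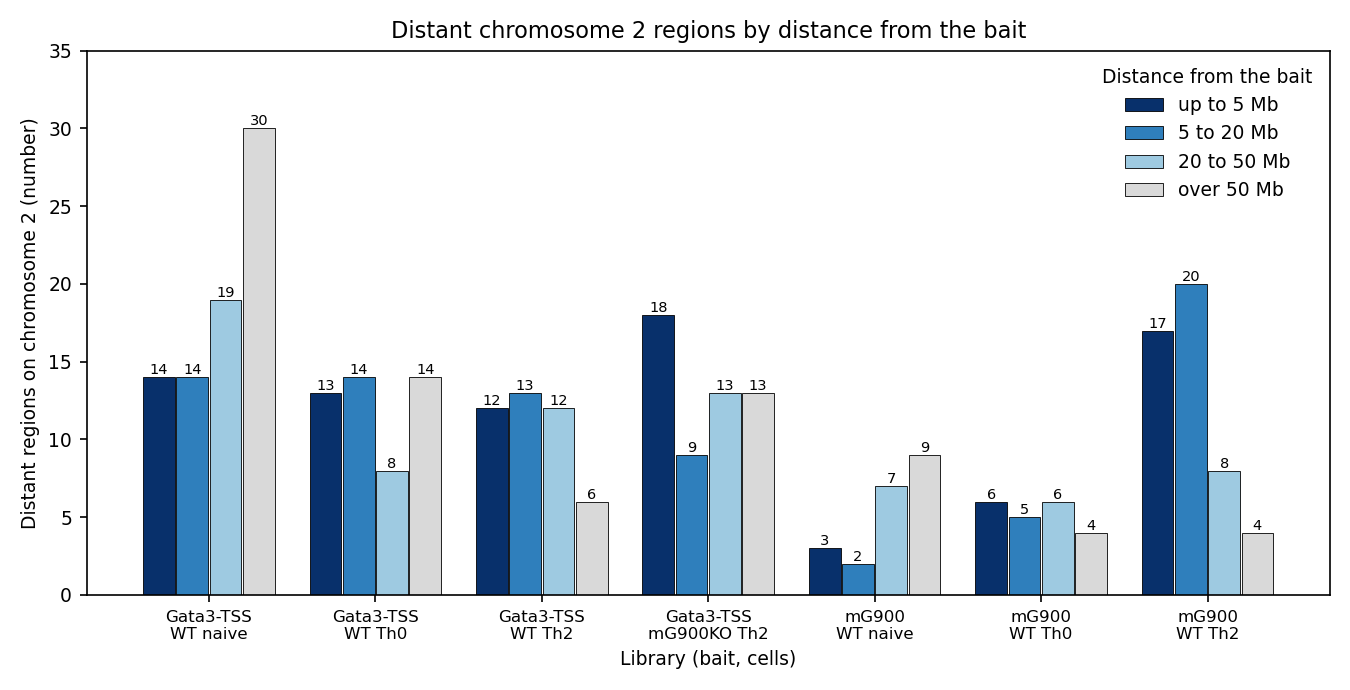
Number of distant chromosome 2 regions in each library by distance of the region midpoint from its own bait, without the repeat-prone locus; each bar is 1 list and has no error. With the Gata3-TSS bait, the 3 WT lists held 12 to 14 regions up to 5 Mb but 30, 14 and 6 beyond 50 Mb; with the mG900 bait, WT Th2 held 17 and 20 regions in the 2 nearest classes.

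Cell states differed mainly in the far calls of the Gata3-TSS bait and in the near calls of the mG900 bait. With the Gata3-TSS bait, naive, Th0 and Th2 cells of the WT had 14, 13 and 12 regions up to 5 Mb and 14, 14 and 13 at 5 to 20 Mb. Beyond 50 Mb they had 30, 14 and 6. The share up to 20 Mb was 36.4% in naive, 55.1% in Th0 and 58.1% in Th2 cells. The near counts of this bait were thus within 2 regions of each other, and the longer naive list differed mainly beyond 20 Mb, where it had 49 regions against 22 and 18. With the mG900 bait, naive, Th0 and Th2 cells had 3, 6 and 17 regions up to 5 Mb and 2, 5 and 20 at 5 to 20 Mb. Beyond 50 Mb they had 9, 4 and 4, and the median distance was 39.8, 19.9 and 7.29 Mb. Hence 37 of the 49 WT Th2 regions of this bait (75.5%) lay up to 20 Mb away, against 5 of 21 in naive cells. mG900KO Th2 cells had 18, 9, 13 and 13 regions in the 4 classes with the Gata3-TSS bait. These are counts of calls in single libraries; the lists differ in length over the whole genome as well, from 129 to 277 regions with the Gata3-TSS bait and from 72 to 237 with the mG900 bait, and the part of sequencing depth in this was not tested.

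Overlapping calls joined into 213 loci. Of these, 168 were called in 1 library, 21 in 2, 10 in 3, 8 in 4 and 6 in 5, and none in more. Recurrence was most frequent near the bait: 14 of 42 loci up to 5 Mb from the Gata3-TSS (33.3%) and 13 of 49 at 5 to 20 Mb (26.5%) were called in 2 or more libraries, against 7 of 59 (11.9%) at 20 to 50 Mb and 11 of 63 (17.5%) beyond. Regions also cover more of the near sequence, since those of the Gata3-TSS bait together cover 6.56% of bases up to 5 Mb and 0.524% beyond 50 Mb. The Gata3-TSS bait alone called 125 loci, the mG900 bait alone 73, and both baits 15.

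**Figure D2:**
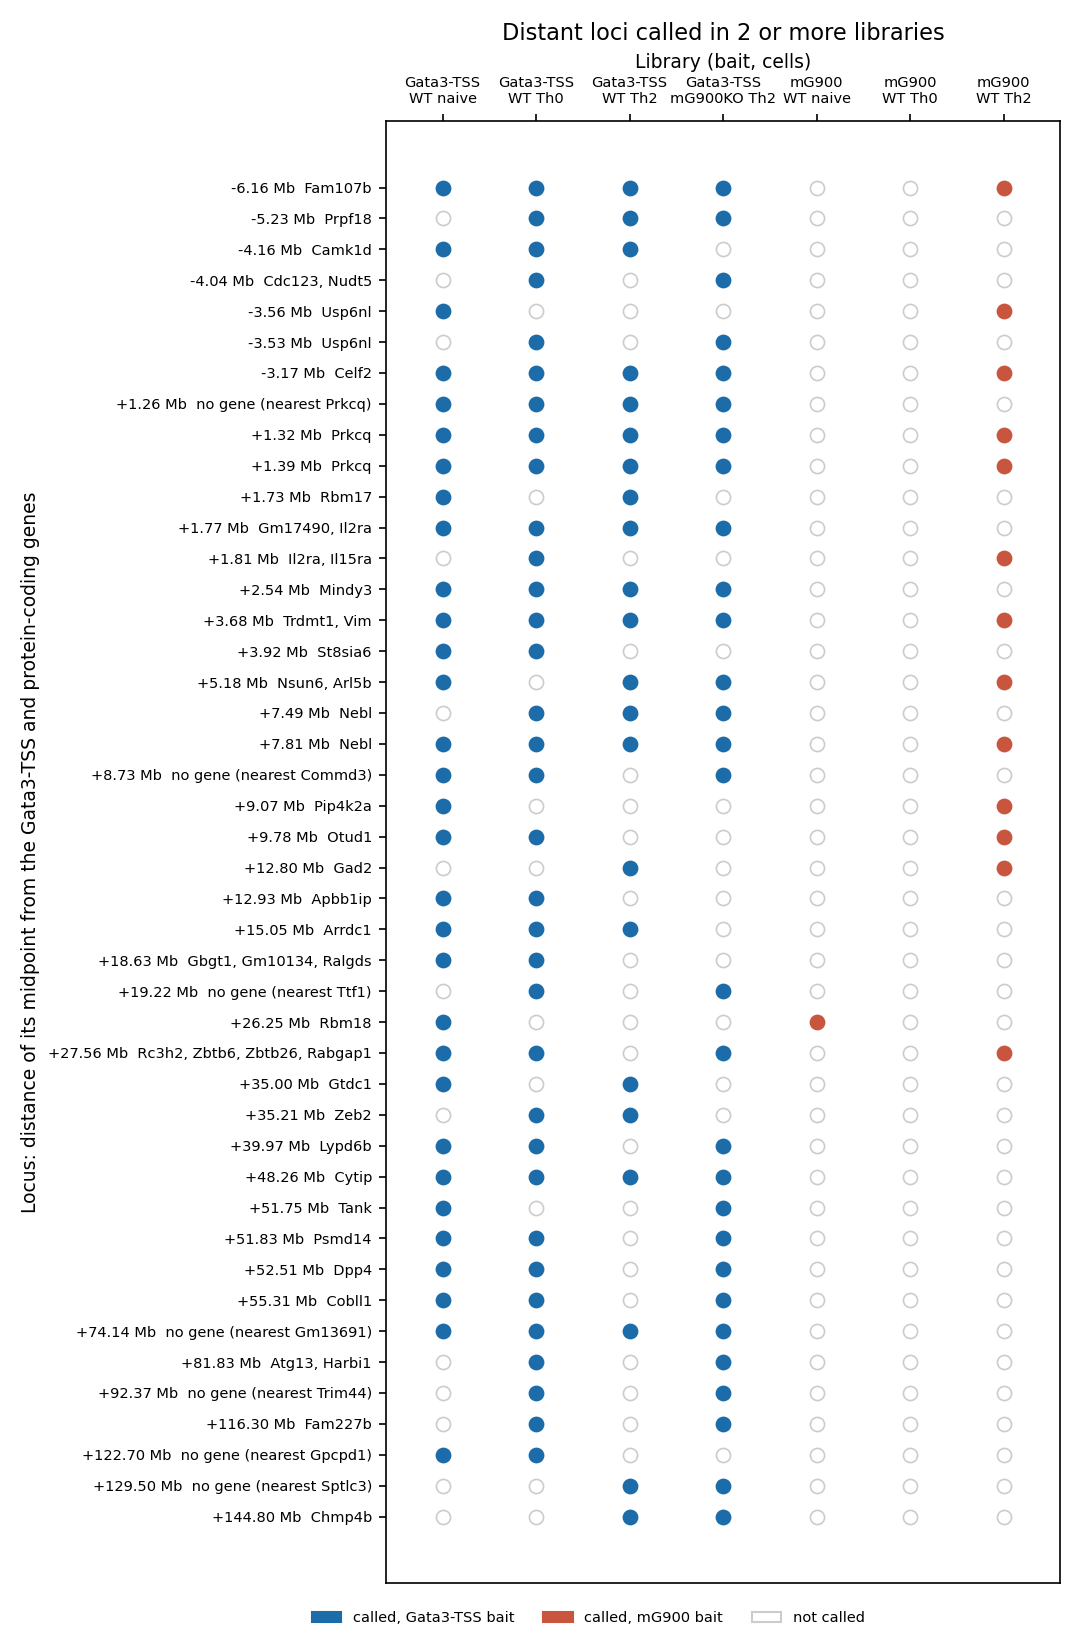
Distant loci called in 2 or more libraries (44 drawn), ordered by signed distance of the locus midpoint from the Gata3-TSS in Mb (negative values are downstream of Gata3), with the protein-coding genes each overlaps; filled points mark the libraries that called it. The column of mG900 WT Th2 is filled in 13 rows, that of mG900 WT naive in 1 (Rbm18) and that of mG900 WT Th0 in none.

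Genes of T cell activation were among the nearest loci. Calls over genes were common at this distance, with 25 of 40 protein-coding genes up to 5 Mb from the Gata3-TSS overlapped in any library (62.5%). Prkcq encodes protein kinase C theta, which carries the T cell receptor signal to NF-κB, and Il2ra encodes CD25, the alpha chain of the receptor for IL-2. Prkcq (chr2:11172108-11301222, plus strand) has its midpoint 1.36 Mb upstream of the Gata3-TSS. With the Gata3-TSS bait it was overlapped by 2 regions in WT naive, 2 in WT Th0, 3 in WT Th2 and 4 in mG900KO Th2 cells, which covered 52.2, 36.9, 47.7 and 71.0 kb of the gene. With the mG900 bait, WT Th2 cells had 4 regions that covered 39.3 kb, while WT naive and WT Th0 cells had none. These calls formed 2 loci, chr2:11164251-11234946 (70.7 kb) and chr2:11249840-11283827 (34.0 kb), each called in 5 libraries. The start of Prkcq lay within a Gata3-TSS region in both Th2 genotypes and in WT Th0 cells. In naive cells the first region of the gene began at 11206555, inside it. No stretch of the first locus was shared by all 5 libraries. In the second, the 4 Gata3-TSS calls shared chr2:11259908-11273889, 17.4% of which is exon. A further locus without a gene, chr2:11133056-11154157, 18.0 kb before Prkcq, was called in all 4 libraries of the Gata3-TSS bait and in none of the mG900 bait, and its WT naive call was the nearest region of that bait, at 1.26 Mb.

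Il2ra (chr2:11642807-11693193, plus strand) was overlapped in the same 5 libraries. The 4 calls of the Gata3-TSS bait lay over its start, at 11626188-11663683 in WT naive, 11624835-11650273 in WT Th0, 11624835-11657586 in WT Th2 and 11633509-11652283 in mG900KO Th2 cells. The naive call, at 37.5 kb and 203 fragments, was the longest region of the Gata3-TSS bait. They share chr2:11633509-11650273, which holds the start of Il2ra and the 250 bases before it. In WT Th2 cells the mG900 bait instead called the far end of the gene, at 11674262-11691896, and this overlapped by 0.524 kb of Il2ra exon a second WT Th0 call of the Gata3-TSS bait that ran from 11691373 to 11708478 into Il15ra, the alpha chain of the IL-15 receptor. Rbm17, a splicing factor gene just before Il2ra, was called in WT naive and WT Th2 cells, from 11597578 in both. The promoter of Il2ra is shown because it was inside a called region in all 4 libraries of the Gata3-TSS bait, and that of Rc3h2 because it was inside a region with both baits. Both are the 250 bases before the annotated start in RefSeq (GRCm38.p6), on the gene's strand, with any NlaIII site in capitals; neither has one, while 56.3% of the 2847 such stretches of chromosome 2 do.
Il2ra, chr2:11642542-11642791, plus strand: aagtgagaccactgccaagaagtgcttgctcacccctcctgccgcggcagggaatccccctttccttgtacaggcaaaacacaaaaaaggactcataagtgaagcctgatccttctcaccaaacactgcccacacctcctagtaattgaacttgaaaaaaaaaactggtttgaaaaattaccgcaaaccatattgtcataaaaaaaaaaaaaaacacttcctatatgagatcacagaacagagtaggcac
Rc3h2, chr2:37422904-37423153, minus strand: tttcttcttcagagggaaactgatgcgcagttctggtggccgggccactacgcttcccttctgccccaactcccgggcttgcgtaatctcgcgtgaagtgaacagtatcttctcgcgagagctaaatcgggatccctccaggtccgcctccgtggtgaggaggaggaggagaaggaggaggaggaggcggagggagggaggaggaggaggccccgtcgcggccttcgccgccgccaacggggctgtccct
The Il2ra stretch has 42.4% GC and 3 CpG, and that of Rc3h2 has 63.6% GC and 20 CpG. The medians over the 2847 such promoter stretches of chromosome 2 are 52.0% and 5.

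**Figure D3:**
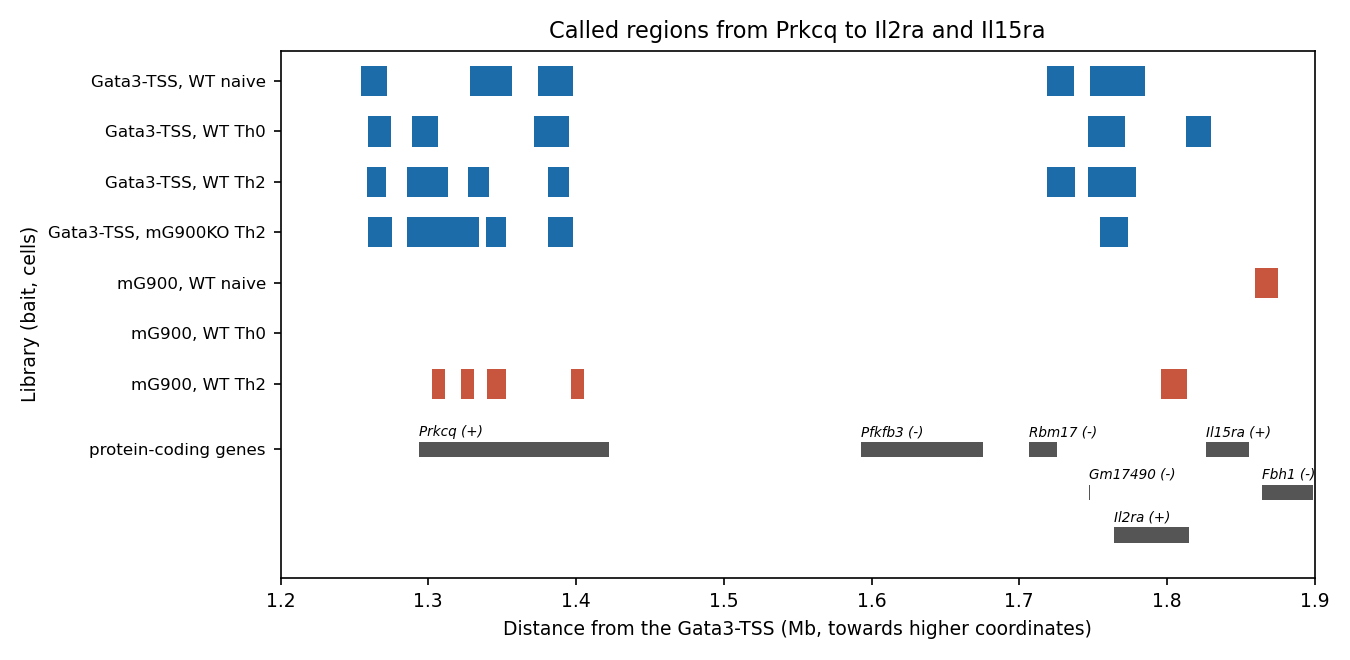
Called regions (bars) between 1.2 and 1.9 Mb upstream of the Gata3-TSS in each library, with protein-coding genes and their strand below. All 4 libraries of the Gata3-TSS bait have calls over the locus before Prkcq, over Prkcq and over the start of Il2ra; of the mG900 libraries, WT Th2 has calls over Prkcq and the far end of Il2ra, and WT naive has 1 over Fbh1.

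On the downstream side, Celf2, a gene of 970 kb for an RNA-binding regulator of splicing, was overlapped in 6 libraries, more than any other gene. The locus chr2:6685409-6736976, 3.17 Mb from the Gata3-TSS, was called in 5. All 5 shared chr2:6704931-6717951, which lies in an intron of Celf2. In WT Th2 cells the mG900 bait had 6 regions over 109 kb of Celf2, against 1 region over 29.01 kb with the Gata3-TSS bait. Those 6 included the nearest region of the mG900 bait, chr2:7319129-7334079 at 1.62 Mb, and its longest, chr2:6570393-6600595 (30.2 kb, 122 fragments). In WT Th0 cells the mG900 bait had 2 regions in Celf2, between 6785792 and 6880795, neither of which any other library called. Fam107b (chr2:3698740-3732983, 6.16 Mb) was also called in 5 libraries, but there the mG900 call at 3720324-3732983 lay to the higher side of the part that the 4 Gata3-TSS calls shared, chr2:3702851-3711088.

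Upstream of Gata3 the remaining loci of 4 or 5 libraries lay over genes of many functions. The locus chr2:13540611-13580260 at 3.68 Mb was called in 5 libraries. All 5 shared chr2:13549382-13558576, between Trdmt1, an RNA methyltransferase gene, and Vim, which encodes the intermediate filament protein vimentin. All 3 WT cell states had the same 50 fragments there with the Gata3-TSS bait, to within 1 base. A call of 50 fragments is the shortest length in these lists. Vim itself was overlapped in WT Th2 and mG900KO Th2 cells with that bait and in no other library. The Nebl locus chr2:17676768-17705195 at 7.81 Mb was called in 5 libraries, of which the mG900 call reached only that of WT naive cells. Mindy3 (2.54 Mb), a deubiquitinase gene, and Cytip (48.3 Mb), whose product binds cytohesin in blood cells, were called in all 4 Gata3-TSS libraries and with the mG900 bait in none. So was chr2:84008025-84021346, 74.1 Mb away and 14.98 kb from the nearest gene, the farthest locus of 4 libraries.

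A further 2 loci of 4 libraries had 3 calls of the Gata3-TSS bait and that of WT Th2 cells with the mG900 bait, and in each all 4 calls shared the start of at least 1 gene. At 5.18 Mb they shared chr2:15052465-15063472, which holds the start of Nsun6, an RNA methyltransferase gene, and part of Arl5b, a small GTPase gene on the other strand, and WT Th0 cells lacked the Gata3-TSS call. The start of Arl5b in GENCODE, at 15049395, lay in the calls of WT naive and mG900KO Th2 cells alone. RefSeq also has a start of Arl5b farther inside the gene. The stretch just before that start, chr2:15055070-15055319, lay in all 4 calls. At 27.6 Mb they shared chr2:37421266-37439611 over Rc3h2, Zbtb6 and Zbtb26, and WT Th2 cells lacked the Gata3-TSS call. Rc3h2 encodes Roquin-2, which represses mRNAs of T cell activation, and the other two encode zinc finger proteins.

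A further 6 loci were called with both baits in 2 or 3 libraries. Gad2 (chr2:22670177-22686896, 12.8 Mb), a glutamate decarboxylase gene, held the sole locus called in WT Th2 cells with both baits and in no WT naive or WT Th0 library. Another part of the gene, chr2:22648462-22661976, was however called in WT naive cells with the mG900 bait. The 2 Th2 calls overlapped by 0.699 kb and mG900KO Th2 cells had none there. Rbm18 (chr2:36114065-36136103, 26.3 Mb) was called in WT naive cells with both baits, over a shared 4.85 kb. Loci in Usp6nl (3.56 Mb) and Pip4k2a (9.07 Mb) were called in WT naive cells with the Gata3-TSS bait and in WT Th2 cells with the mG900 bait, and a separate Usp6nl locus at 3.53 Mb in WT Th0 and mG900KO Th2 cells. The Otud1 locus (9.78 Mb) was called in WT Th2 cells with the mG900 bait and in WT naive and WT Th0 cells with the Gata3-TSS bait, over a shared 0.693 kb outside the gene, and the locus of Il2ra and Il15ra is given above. Hence 14 of the 15 loci of both baits involved the WT Th2 list of the mG900 bait.

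Sharing between lists differed with the bait. The 4 Gata3-TSS lists all overlapped each other. Of 77 WT naive regions, 25 (32.5%) overlapped the WT Th0 list and 18 (23.4%) the WT Th2 list. Of 49 WT Th0 regions, 24 (49.0%) overlapped the naive list and 16 (32.7%) the Th2 list, and of 43 WT Th2 regions, 17 (39.5%) and 16 (37.2%) overlapped the naive and Th0 lists. In all, 122 of the 222 regions of this bait (55.0%) overlapped another of its lists, from 45 of 57 (78.9%) up to 5 Mb to 18 of 52 (34.6%) at 20 to 50 Mb and 27 of 63 (42.9%) beyond.

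The 3 mG900 lists shared no region with each other outside the repeat-prone locus. This was 0 of 21 naive, 0 of 21 Th0 and 0 of 49 Th2 regions, which by a limit of 3 counts allows a share of up to 14.3% for 21 regions and 6.12% for 49, and by the exact 95% interval 16.1% and 7.25%. When gaps of up to 100 kb were bridged, 4 of 21 Th0 regions (19.0%) lay by a Th2 region. Across the baits the same states differed. In WT Th2 cells 7 of 43 Gata3-TSS regions (16.3%) and 9 of 49 mG900 regions (18.4%) overlapped. In naive cells it was 1 of 77 and 1 of 21, and in Th0 cells 0 of 49 and 0 of 21. Against all 4 Gata3-TSS lists, 17 of the 49 mG900 WT Th2 regions overlapped a call (34.7%, exact 95% interval 21.7 to 49.6%), including 9 of 17 up to 5 Mb and none of the 4 beyond 50 Mb. Over 20 Mb the naive and Th0 lists of the mG900 bait thus consisted of 16 and 10 regions of which 1, at Rbm18, recurred.

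**Figure D4:**
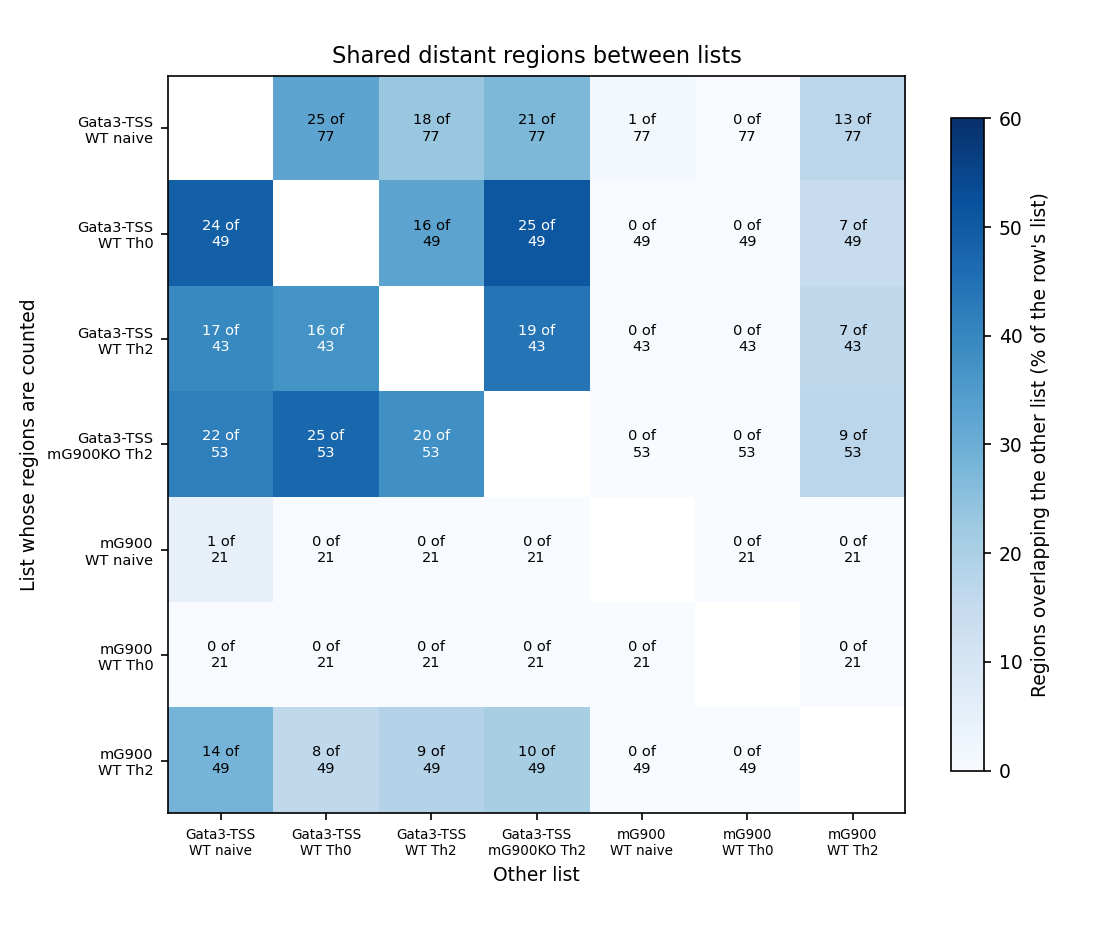
Number of regions of each list (row) that overlap a region of another list (column) by at least 1 base, with the colour giving the percent of the row's list, without the repeat-prone locus. The 4 by 4 block of Gata3-TSS lists is filled throughout, the mG900 block holds 0 in every field, and mG900 WT Th2 overlaps each Gata3-TSS list.

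The distant calls of WT and mG900KO Th2 cells overlapped in part. Of the Gata3-TSS calls, 19 of 43 WT Th2 regions (44.2%, exact 95% interval 29.1 to 60.1%) overlapped the mG900KO Th2 list, and 20 of 53 mG900KO regions (37.7%, 24.8 to 52.1%) overlapped the WT list. The 2 genotypes shared 17 loci. For comparison, 25 of 53 mG900KO Th2 regions (47.2%, 33.3 to 61.4%) overlapped the WT Th0 list and 22 (41.5%, 28.1 to 55.9%) the WT naive list, pairs that were added after the other values had been seen. All 3 shares are of the same 53 regions of 1 library, and their differences were not tested.

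Of all 43 WT Th2 regions of the Gata3-TSS bait, 25 (58.1%) overlapped a call of another library, mG900KO Th2 included. Of the 24 picked for having no mG900KO Th2 call, 6 were also called in another library. These were Camk1d and Arrdc1, each called in all 3 WT Gata3-TSS lists, Rbm17 and Gtdc1, called in WT naive cells as well, Zeb2, called in WT Th0 cells as well, and Gad2, called with the mG900 bait. Camk1d encodes a calmodulin-dependent kinase and Zeb2 a transcriptional repressor. In the region over the Camk1d start, chr2:5702691-5728316, the 3 WT calls spanned 25.6, 13.3 and 17.9 kb. At Zeb2, chr2:45085107-45100979, both calls started at 45085107.

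In the reverse direction, 33 mG900KO Th2 regions were picked for having no WT Th2 call. Of all 53 regions of that list, 25 (47.2%) overlapped the WT Th0 list. Of the 33, 13 were called in another library, 12 of them in WT Th0 cells. Of these, 5 were over 20 Mb away and called in WT naive, WT Th0 and mG900KO Th2 cells alike: Rc3h2 at 27.6 Mb, also called with the mG900 bait, Lypd6b at 40.0 Mb, Psmd14, a proteasome subunit gene, at 51.8 Mb, Dpp4 at 52.5 Mb and Cobll1 at 55.3 Mb. In Lypd6b, WT Th2 cells had a call of their own at chr2:49779942-49792510, over the gene's start and 50.1 kb from the nearest mG900KO region. In Cobll1, WT Th2 cells had one with the mG900 bait, at chr2:65119155-65130257. Dpp4 encodes CD26, a peptidase on the surface of activated T cells, and its 3 calls all started at 62384576 and ended at 62400495 in WT naive and at 62397207 in WT Th0 and mG900KO Th2 cells. A gene-free locus 54.1 kb from Commd3, at 8.73 Mb, had the same pattern. Cdc123 with Nudt5, at 4.04 Mb, was shared with WT Th0 cells, and Tank, a regulator of NF-κB signalling at 51.8 Mb, with WT naive cells. In all, 5 of the 25 WT Th0 calls that overlapped the mG900KO Th2 list were the same at both edges there, to within 1 base. It was 1 of 19 for WT Th2 calls and 0 of 21 for WT naive calls with the Gata3-TSS bait. Over all 21 pairs of libraries it was 11 of 161. The differences were not tested. Besides Lypd6b and Dpp4, the 5 were Nebl at 7.49 Mb, Fam227b at 116 Mb and chr2:102249351-102257403, chosen for this after their values had been seen. At the Fam227b locus 28.95% of the fragment ends are repeated in the genome, against a median of 4.90% over the 213 loci. The single call alike in both Th2 genotypes lay over Chmp4b at 145 Mb. As each genotype is 1 library, genotype and library cannot be told apart.

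Regions of the Gata3-TSS bait, and those of the mG900 bait in WT Th2 cells, overlapped genes more often than windows of the chromosome did. Of the 222 regions of the Gata3-TSS bait, 173 (77.9%, exact 95% interval 71.9 to 83.2%) overlapped a protein-coding gene, and of the 91 of the mG900 bait, 60 (65.9%, 55.3 to 75.6%), against 53.7% of 17219 successive windows of 50 fragments outside the window. Regions were longer than these windows, at a median of 13.9 and 13.2 kb against 10.1 kb, but gene bodies also made up 64.5% and 63.6% of their bases against 46.3%. A locus called in several libraries counts once in each, so the regions are not independent as the intervals assume. Counted by locus, 84.4% of the 45 called in 2 or more libraries overlapped a gene, and 66.7% of the 168 called in 1. The pooled mG900 values rested on WT Th2 cells, with 77.6% of regions over a gene and 74.99% of bases in gene bodies. WT naive cells had 47.6% and 46.8% with this bait, and WT Th0 cells 57.1% and 52.4%. In the nearest class the shares of regions over a gene were 86.0% and 84.6% against 58.2%. At 20 to 50 Mb they were 71.2% for the Gata3-TSS bait and 38.1% for the mG900 bait against 51.4%. GC content was close to that of the windows, with medians of 42.4% and 41.9% against 41.6%, and so was the median share of repeated fragment ends, 4.90% and 4.61% against 4.90%.

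The baits differed in how often their regions held the start of a gene. Regions of the Gata3-TSS bait held 117 starts of protein-coding genes in 3.33 Mb, or 35.2 per Mb, counting a start again in each library. Those of the mG900 bait held 16 in 1.21 Mb, or 13.2 per Mb, and the windows 10.4 per Mb. By library the Gata3-TSS values were 35.5, 37.5 and 36.0 per Mb in WT naive, Th0 and Th2 cells, with 31.8 for the mG900KO. For the other bait they were 3.80, 14.0 and 16.6 per Mb, from 1, 4 and 11 starts. The 4 lists of one bait and the 3 of the other did not overlap in this value. The 4 Gata3-TSS values are not independent, since the starts of Il2ra and Mindy3, for example, lay in all 4 lists. Each list is 1 library of a different cell state or genotype. Per the methods the baits also differed in the second enzyme, so bait and template preparation cannot be told apart. In each distance class the Gata3-TSS bait was also above the windows, by 32.7 against 5.004 per Mb up to 5 Mb and 26.4 against 11.3 beyond 50 Mb. The mG900 bait was above them too up to 5 Mb (10.68 per Mb), at 5 to 20 Mb (17.15 against 12.04) and at 20 to 50 Mb (18.89 against 7.017). Beyond 50 Mb it was below them, at 4.457 per Mb from 1 start. Loci called in 1 library held 26.7 starts per Mb and those called in 2 or more 29.02, but by distance class the order changed, with 17.7 against 30.7 up to 5 Mb and 54.7 against 26.5 at 5 to 20 Mb. A start lay in 26.2% of the former and in 42.2% of the latter, which were longer, at a median of 18.6 against 13.4 kb.

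**Figure D5:**
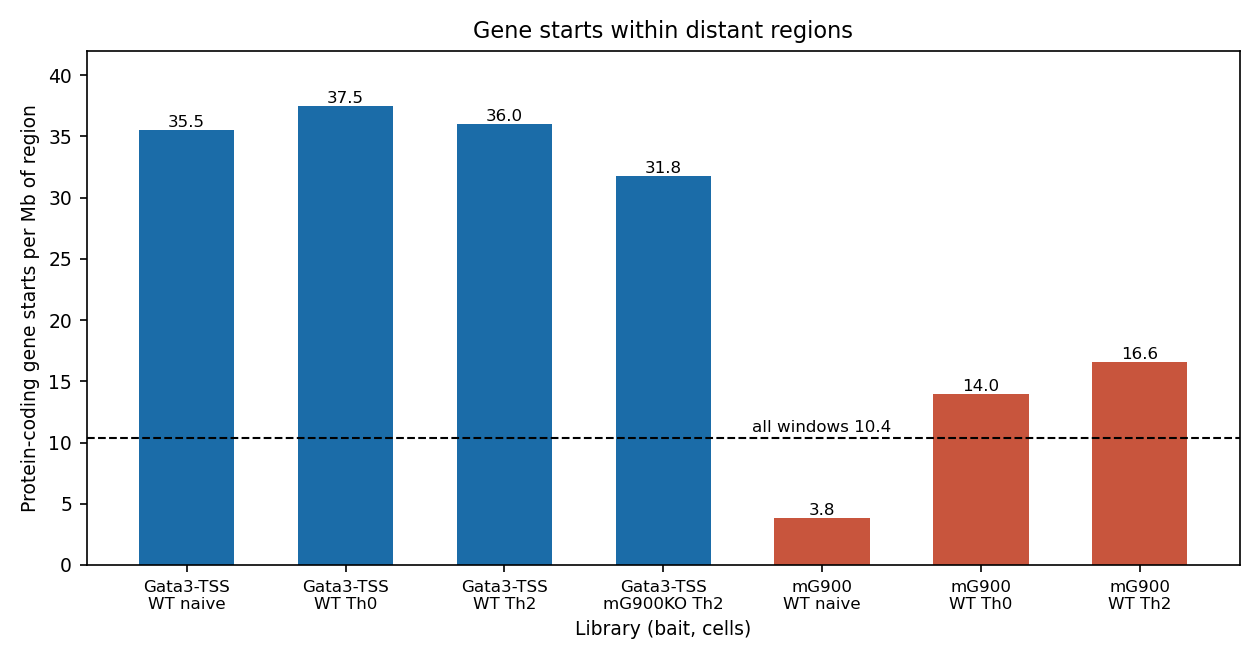
Starts of protein-coding genes per Mb of distant region in each library, all distances together; the dashed line is the value over all windows of 50 fragments (10.4 per Mb). The 4 Gata3-TSS libraries sit between 31.8 and 37.5, and the 3 mG900 libraries between 3.80 and 16.6.

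Counted by gene, 152 of 1832 protein-coding genes outside the window (8.3%) were overlapped by a region of any library, and 49 (2.67%) in 2 or more. Up to 5 Mb from the Gata3-TSS it was 25 of 40 genes (62.5%), and beyond 5 Mb 127 of 1792 (7.09%). Among neighbours of Gata3 outside the window, 30 of 40 were overlapped, 13 of them in 2 or more libraries, with 20 of 29 of those up to 5 Mb and 10 of 11 of those beyond (90.9%). This list was drawn up with earlier results known, so its counts support nothing. Beside the genes named above they included Upf2 and Pter, called in WT Th2 cells with the mG900 bait, Echdc3 and Mrc1, called in mG900KO Th2 cells, and Rsu1, called in WT naive cells with the Gata3-TSS bait. Proser2, Pfkfb3 and Cubn were among the 10 not overlapped.

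Of 35 listed T cell and cytokine genes on the chromosome, 8 were overlapped (22.9%). Of the 32 more than 5 Mb away it was 5 (15.6%), beside 7.09% of all genes at that distance. This list, too, was drawn up with earlier results known, so its counts support nothing. The listed genes were longer than all genes outside the window, with a median of 36.5 kb against 14.6 kb. The 3 near ones were Prkcq, Il2ra and Il15ra, and the far ones were Cytip in 4 libraries, Dpp4 in 3, and in 1 library each Itga6 and Plcg1 in WT naive cells and Ifih1 in WT Th2 cells, all with the Gata3-TSS bait. Itga6 encodes an integrin subunit, Plcg1 a phospholipase of receptor signalling and Ifih1 the RNA sensor MDA5. The other 27, among them Cd44, Notch1, Il1a, Il1b, Rag1, Rag2 and Nfatc2, were not overlapped in any library. Of 46 listed genes for transcription factors and chromatin regulators, 2 were overlapped (4.35%), Zeb2 and Mllt10. Mllt10, at 8.26 Mb, was called in WT naive cells with the Gata3-TSS bait and in WT Th2 cells with the mG900 bait. The list was likewise drawn up with earlier results known and does not cover every such gene. It leaves out the zinc finger genes Zbtb6 and Zbtb26, each called in 4 libraries.

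The farthest regions were each called in 1 library. Those of the Gata3-TSS bait reached Ctsz, the gene of cathepsin Z, at chr2:174438341-174448047, 165 Mb away in WT naive cells, and those of the mG900 bait chr2:171299700-171312877, 162 Mb away in WT naive cells and 419931 bases from the nearest gene, Dok5. At the edge of the window, the nearest excluded calls of the Gata3-TSS bait were chr2:8666980-8686855 below and chr2:10358774-10381345 above, and the first regions kept were chr2:6741373-6752601 and chr2:11133056-11150390. For the mG900 bait the excluded calls were chr2:8672476-8692599 and chr2:10337406-10380435, and those kept were chr2:7319129-7334079 and chr2:10559820-10574854, the latter in WT naive cells over Sfmbt2.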

How the data were processed

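The 4C-seq templates were cut with NlaIII and, per the methods, with BglII for the Gata3-TSS bait or DpnII for the mG900 bait (the labels name DpnII for all), and regions were called by the authors with w4Cseq (size_intra 50, size_inter 400, window_intra 3000, FDR 0.05). The deposited lists hold chromosome, start and end on mm10 and no other value; the aligner and read depth are not given in the sources used here. Positions are printed as the lists give them. The members, gene lists and named loci (called in 4 or more libraries, with both baits, or in 1 Th2 genotype and another library) were chosen with earlier results of these data known. Distance runs from a region's midpoint to its own bait, or from a locus's midpoint to the start of Gata3-201 (9878600). Calls sharing at least 1 base were joined. Genes are GENCODE release M21. Fragment ends are the 30 bases from each of 12843857 NlaIII sites. With 1 library per condition no test was run. Intervals are exact binomial (95%) and treat regions as independent. Neighbouring regions are not, nor are calls of the same locus in several libraries. Python 3.11.15 and SciPy 1.17.1 were used. One named locus is not reported here.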

Additional observations from a re-analysis of the deposited data

Results flagged for a closer look

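The number of distant regions moved in opposite directions between WT naive and WT Th2 cells with the 2 baits. The Gata3-TSS bait had 77 regions in naive and 43 in Th2 cells, a Th2 to naive ratio of 0.558, and the mG900 bait had 21 and 49, a ratio of 2.33. Whole-genome list lengths shifted likewise from WT naive to WT Th2, from 277 to 129 regions for Gata3-TSS and from 72 to 237 for mG900. Whether the distant counts changed apart from list length was not tested. The difference between the baits was not tested either, since each count comes from 1 library.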

How the results depend on the processing

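No paired analysis was possible because each condition had 1 library and no test was made, and for the same reason no replicate could be left out. Restriction to regions no shorter than their library's median left 37, 21, 14 and 21 regions with the Gata3-TSS bait (WT naive, Th0, Th2 and mG900KO Th2), 10, 11 and 23 with the mG900 bait (WT naive, Th0 and Th2), and 97 loci, of which 21 were called in 2 or more libraries and 6 with both baits. Among these longer regions, 37.6% of those of the Gata3-TSS bait lay up to 5 Mb away, 77.3% of those of the mG900 bait overlapped a gene, and 14.3% of WT Th0 and 21.4% of WT Th2 regions of the Gata3-TSS bait overlapped each other's list. The overlap of the baits in naive cells fell to 0.0% of either list there and when 50% of the shorter region had to be shared. Leaving out regions up to 5 Mb left 35 in mG900KO Th2 cells and 32 in WT Th2 cells with the mG900 bait. Joining calls up to 100 kb apart gave 25 loci with both baits. With gaps of up to 100 kb allowed, shares with the Gata3-TSS bait were 44.2% of naive regions in the Th0 list, 55.8% of Th2 regions in the Th0 list and 55.8% in the naive list. With the mG900 bait they were 19.0% of Th0 regions in the Th2 list and 14.3% the other way, and between the baits in Th2 cells 41.9% of Gata3-TSS and 38.8% of mG900 regions. The cause was not tested. Merging calls up to 10 kb apart, counting the repeat-prone locus, measuring from the nearest edge and lengthening genes by 10 kb moved no value past the limits used. Read depth is unknown, so an absent call does not show an absent contact.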
